A study of Xenopus laevis with 46 samples.

Results

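Animal pole explants of Xenopus laevis, wild type and uninjected, were kept in IBET from stage 9 and collected at stage 13, and their controls were kept in DMSO over the same period. Of the 46 libraries of the series, 6 make up this experiment, 3 from IBET-treated and 3 from DMSO-treated explants, chosen by the injection, treatment, starting stage and collection stage in their names, and all genes of these libraries were used. IBET is a small-molecule inhibitor of BET (bromodomain and extra-terminal) proteins, and DMSO is its solvent. The labels give the cell type of such stage 13 explants as epidermal. The 3 libraries of each group carry the letters a, b and c in the tables, and whether they came from separate clutches is not stated, so the p-values measure only the spread between these samples.

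Values are set beside those of 4 other groups of libraries where they differ: untreated, uninjected explants at stage 9 (3 libraries), explants injected with Wnt and Chd and treated from stage 9 to stage 13 (3 IBET and 3 DMSO libraries), uninjected explants treated from stage 9 to stage 17 (3 IBET and 3 DMSO libraries), and explants treated from the 2-cell stage to stage 13 (2 IBET and 2 DMSO libraries). Each of the last 3 experiments has its own DMSO controls and shares no library with the one described here.

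BET proteins bind acetylated lysines of histones through paired bromodomains and help to bring the elongation kinase P-TEFb to genes, where it releases paused RNA polymerase II. The cells of the blastula animal pole are pluripotent at stage 9. Cultured without further signals they form epidermis under BMP signalling, and when BMP is blocked they form neural tissue. The embryonic epidermis of Xenopus is made of keratin-rich goblet cells, multiciliated cells, ionocytes and small secretory cells over a basal layer.

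The IBET libraries held 17261470, 17607144 and 21696914 reads in genes (a, b and c), against 25889105, 22504061 and 18841725 in the DMSO libraries. The share of reads that fell in genes was 58.9% to 64.4% in the IBET libraries and 71.8% to 74.0% in the DMSO libraries, while 29541 to 33240 genes had a read in the IBET libraries and 28052 to 29066 in the DMSO libraries. The part of this difference in the results was not tested. The epidermal label of the controls was checked against keratins, which summed to 32790 to 60742.5 CPM (counts scaled to the reads in genes of each library, with edgeR's TMM factors) in the DMSO libraries. In bulk libraries of this kind, fewer cells of a type and less RNA per cell cannot be told apart.

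Between IBET-treated and DMSO-treated explants, 10231 of 21278 genes tested passed an adjusted p of 0.05 in edgeR's quasi-likelihood test (48.1%), 4871 of them higher in IBET (22.9%) and 5360 lower (25.2%). Large falls outnumbered large rises. A log2 fold change past 2 was reached by 1985 genes that rose (9.33%) and 2904 that fell (13.6%), and one past 1 by 4342 (20.4%) and 4895 (23%). A log2 fold change past 4 was reached by 451 genes that rose (2.12%) and 1076 that fell (5.06%). The median log2 fold change over all genes tested was 0.05. Over the same 21278 genes it was 0.06 with DESeq2 size factors and 0.19 when libraries were scaled by their totals alone. It was 0.20 with DESeq2 over 27563 genes. When all 30 libraries treated from stage 9 or untreated were fitted together, it was 0.23 over 26756 genes. Without a low-count filter it was 0.50 over 38747 genes. A change is thus read against a centre that moves with the scaling and with the genes tested. With library totals alone 5538 genes were called higher and 4888 lower, and with all 30 libraries fitted together 6657 and 6036. The direction with more calls thus turned under these settings, of which the fit of all 30 libraries also changed the genes tested. The 3 IBET libraries lay entirely above the 3 DMSO libraries for 6215 genes (29.2%) and entirely below them for 6480 (30.5%). No gene that passed was called in the other direction under any of the 13 other settings in which it could be compared. Without DMSO library a, 3173 genes were called higher.

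The largest falls were in genes of differentiated epidermis. The type I keratin gene krt12.4.L had 0.176, 0.370 and 0.599 CPM in IBET libraries a, b and c, against 4325, 1821 and 1493 CPM in DMSO libraries a, b and c (log2 fold change −12.63 ± 0.71 SE, adjusted p = 2.54e-05). Its homeolog krt12.4.S, the copy on the other subgenome of this allotetraploid frog, had 0.705, 0 and 1.15 CPM in IBET libraries, against 2642, 864 and 1052 CPM in DMSO libraries. No library of one group came near those of the other for either copy, but the largest falls were chosen among genes without overlap between the groups.

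The 12 largest falls also held the following genes. tp63.S, which encodes the p63 transcription factor of basal epidermis, had 1 read over the 3 IBET libraries and 7466 over the 3 DMSO libraries, a DMSO to IBET ratio of 6944 with a 95% counting interval of 1246 to 274310 that covers counting error only. In CPM, tp63.S was at 0.0588, 0 and 0 in IBET libraries and at 184, 63.1 and 91.9 in DMSO libraries. itln1.L, an intelectin that epidermal secretory cells release, had 4 reads against 24968, unevenly spread over the DMSO libraries (mean 359 CPM, SD 460). Its homeolog itln1.S rose by 1.82, with means of 2.69 CPM in IBET and 0.757 CPM in DMSO libraries. The alpha-tubulin gene tuba1cl.3.L had 0.411, 0.158 and 0.214 CPM in IBET libraries, against 1684, 780 and 1173 CPM in DMSO libraries. atp6v1g3.S, a subunit of the vacuolar proton pump of ionocytes, had no read in the IBET libraries and 668 in the DMSO libraries, which makes it at least 207-fold lower when 3 reads over the group are taken as the floor. atp13a-like.S, tuba1cl.1.L, mcidas.S, astl2d.1.L, cmahp.L and fam3d.S complete these falls, with 1 to 31 reads each over the IBET libraries.

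**Figure D1:**
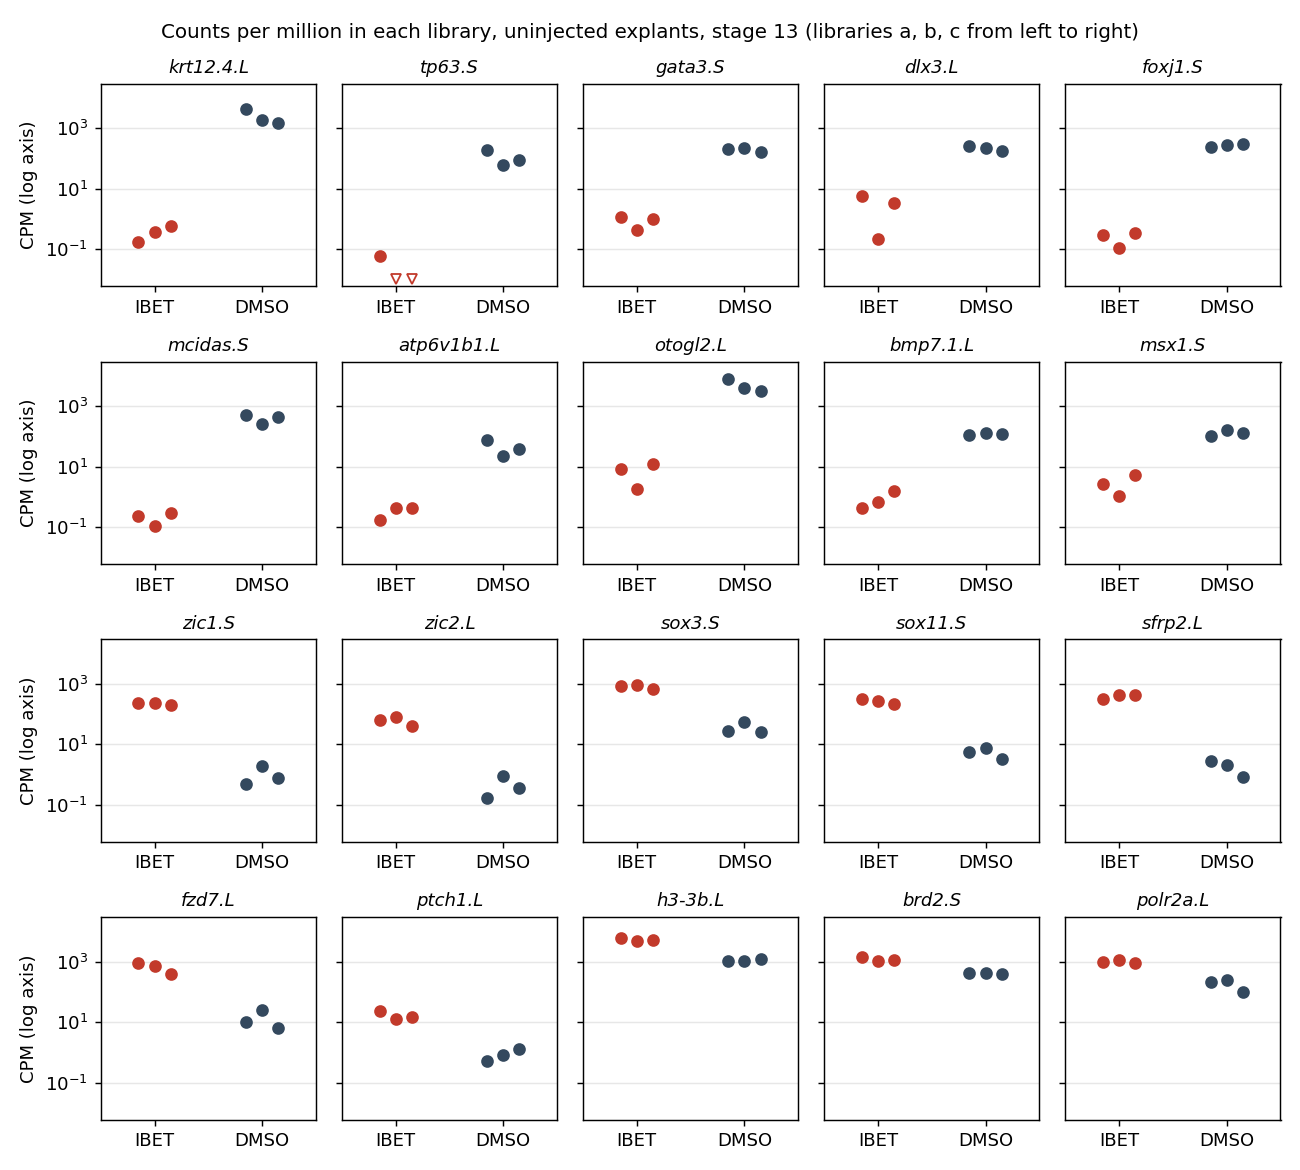
CPM of 20 genes in each library, on a log axis, with the 3 IBET libraries (red) left of the 3 DMSO libraries (dark blue) and libraries a, b and c from left to right; open triangles at the bottom mark libraries with no read. The first 10 genes are lower in every IBET library than in any DMSO library (tp63.S at 0 to 0.0588 CPM in IBET), and the last 10 are higher in every IBET library.

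Among keratin-family genes, 21 of 27 tested fell (77.8%) and 2 rose (7.41%), beside 25.2% and 22.9% of all genes tested. Their median log2 fold change was −3.51, against 0.05 over all genes tested. The family summed to 2821 to 4430 CPM in IBET libraries and 32790 to 60742.5 CPM in DMSO libraries. krt7.L had 716, 261 and 834 CPM in IBET libraries and 12587, 7011 and 7788 CPM in DMSO libraries (−3.92 ± 0.46). krt70.L fell by 7.80 on the log2 scale and krt18.3.L fell by 7.96. The 2 that rose were krt19.L and krtcap3.L, which the name match brought in and which encodes no keratin. krt19.L was at 35.9, 104 and 81.7 CPM in IBET libraries and 33.2, 25.1 and 23.9 CPM in DMSO libraries. Its call was lost without IBET b, IBET c, DMSO b or DMSO c, or with all 30 libraries fitted together (adjusted p = 0.0533 to 0.0941). In each of these settings 1 gene of the family was called higher. krt18.1.L, a keratin of simple epithelia, did not pass (−0.48 ± 0.32, adjusted p = 0.242), but passed without IBET library b (−0.87).

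Transcription factors that drive epidermal fate fell with the keratins. Of 35 tested members of the list, 23 fell (65.7%) and 1 rose (2.86%), with a median of −3.06, beside 25.2% and 22.9% of all genes tested. gata3.S had 1.18, 0.423 and 0.983 CPM in IBET libraries, against 204, 226 and 160 CPM in DMSO libraries (−7.83 ± 0.44, adjusted p = 2.54e-05). The homeodomain gene dlx3.L had 5.64, 0.211 and 3.38 CPM in IBET libraries, against 259, 224 and 180 CPM in DMSO libraries (−6.17 ± 0.87, adjusted p = 8.65e-04). klf5.L was at 7.29, 0.740 and 8.04 CPM in IBET libraries and 339, 358 and 364 CPM in DMSO libraries. Library b was the lowest of the IBET libraries for these genes and for grhl1.L, tfap2c.L and gata2.L, and the list summed to 3167, 545 and 1801 CPM in IBET libraries a, b and c, against 8288, 8753 and 6835 CPM in DMSO libraries.

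Calls for several early ectodermal regulators were not made or varied with the setting. tfap2a.L, which patterns the whole non-neural ectoderm, had 550, 80.0 and 242 CPM in IBET libraries and 96.2, 268 and 161 CPM in DMSO libraries, with overlapping groups (0.73 ± 0.62, adjusted p = 0.351), and without IBET library a the change was −0.079. dlx5.L had 235, 45.7 and 200 CPM in IBET libraries and 92.5, 136 and 106 CPM in DMSO libraries (0.52 ± 0.51, adjusted p = 0.416), and passed as higher without IBET library b (0.95). For grhl3.L, a grainyhead factor of the outer epithelium, the change was −1.17 ± 0.50 with an adjusted p of 0.0809; it passed as lower without IBET library a (−1.88), with DESeq2 and without a low-count filter, while its homeolog grhl3.S passed at −3.63 ± 0.92 (adjusted p = 0.0123). The 1 member that rose (2 without IBET library b or with all 30 libraries, 0 at a mean CPM of at least 5) was foxi2.L, at 1.59, 1.43 and 1.11 CPM in IBET libraries against 0.335, 0.332 and 0.372 CPM in DMSO libraries.

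Structural and secreted products of the epidermis followed. Of 29 tested effector genes, 19 fell (65.5%, beside 25.2% of all genes tested) and 7 rose (24.1%, near the 22.9% of all genes). The median was −3.17. ppl.S, the cytolinker periplakin, had 0.588, 0.740 and 0.599 CPM in IBET libraries, against 726, 496 and 370 CPM in DMSO libraries (−9.68 ± 0.42, adjusted p = 1.10e-05). xepsin.L, an epidermal serine protease, was at 0.588, 0.0528 and 0.257 CPM in IBET libraries and 570, 372 and 360 CPM in DMSO libraries. trim29.L and upk1b.L, a uroplakin, had log2 fold changes of −8.63 and −5.34.

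Of 51 tested cell junction genes, 13 rose (25.5%, beside 22.9% of all genes tested) and 20 fell (39.2%, beside 25.2%), with a median of −0.29, and 6 and 7 rose without DMSO library a and DMSO library c. cdh1.S (E-cadherin) had 69.9, 34.4 and 55.5 CPM in IBET libraries, against 1113, 959 and 941 CPM in DMSO libraries. The plakophilin pkp3.S, a desmosomal plaque protein, fell by 4.95 ± 0.28, and the splicing factor esrp1.L, which maintains epithelial splice forms, fell by 2.37 ± 0.45. cdh3.L, the cadherin that is abundant in the early embryo, had 1156, 507 and 809 CPM in IBET libraries, against 107, 444 and 175 CPM in DMSO libraries (1.77 ± 0.52, adjusted p = 0.0220), and the call was lost without IBET library a, DMSO library a or DMSO library c (1.37 to 1.53, adjusted p = 0.0532 to 0.0796). epcam.L did not pass (−0.29 ± 0.28), but passed without IBET library a (−0.61).

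Claudins, the tight junction proteins, held 2 of the 12 largest rises. Of 15 tested, 8 rose (53.3%, beside 22.9% of all genes tested) and 4 fell (26.7%, near the 25.2% of all genes). Those that fell included cldnd1.L (−2.61), a claudin domain gene rather than a claudin. cldn5.L had 11.8, 10.7 and 20.4 CPM in IBET libraries, against 0, 0.0948 and 0 CPM in DMSO libraries, or 881 reads against 2, an IBET to DMSO ratio of 474 with a 95% counting interval of 131 to 3917. cldn5.S had 16.3, 39.0 and 70.8 CPM in IBET libraries, against 0.126, 0.427 and 0 CPM in DMSO libraries. cldn6.2.L was at 971, 731 and 849 CPM in IBET libraries and 148, 214 and 257 CPM in DMSO libraries (2.05 ± 0.27, adjusted p = 5.84e-04).

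Most regulators of multiciliated cells fell, and mcidas and foxj1 were near 0 in IBET-treated explants. In Xenopus the multiciliated programme is switched on by Multicilin (mcidas), which acts with E2F proteins to activate foxj1, myb, ccno and the Rfx factors, and these in turn activate the genes of centrioles and motile cilia. Of 32 tested regulators, 25 fell and none rose (median −3.64; 1 rose without IBET library b, with library totals alone, DESeq2, no low-count filter or a mean CPM of at least 5, and 2 with all 30 libraries), beside 25.2% of all genes tested. mcidas.S had 0.235, 0.106 and 0.299 CPM in IBET libraries, against 491, 258 and 430 CPM in DMSO libraries (−10.78 ± 0.50, adjusted p = 1.10e-05), and mcidas.L fell by 9.31 ± 0.40. foxj1.S had 0.294, 0.106 and 0.342 CPM in IBET libraries, against 247, 278 and 294 CPM in DMSO libraries. For mcidas.S and foxj1.S the highest IBET value was 0.342 CPM and the lowest DMSO value 247 CPM.

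Further down the same cascade, ccno.L, a cyclin needed to make many centrioles, had 1.65, 7.24 and 5.6 CPM in IBET libraries, against 209, 204 and 203 CPM in DMSO libraries. rfx2.L, which many cell types express, fell less (−1.97 ± 0.25, adjusted p = 4.71e-04), with 66.4, 54.2 and 71.8 CPM in IBET libraries and 235, 218 and 301 CPM in DMSO libraries. rfx3.L and e2f4.L did not pass. Of 85 tested genes of the motile axoneme, 75 fell (88.2%) and none rose, beside 25.2% and 22.9% of all genes tested (median −3.16). Without IBET library a or with library totals alone, 1 rose. The list summed to 1715 to 3122 CPM in IBET libraries and 4478 to 8876 CPM in DMSO libraries. Without tubb4b.L, a tubulin gene of the list that was left out after its values were seen, the sum was 418 to 798 CPM in IBET libraries and 2614 to 6904 CPM in DMSO libraries. rsph1.L, a radial spoke protein, had 1.65, 1.69 and 1.54 CPM in IBET libraries, against 175, 62.0 and 112 CPM in DMSO libraries. The dynein intermediate chain gene dnai1.L kept 5.46, 19.4 and 20.3 CPM in IBET libraries, against 122, 43.5 and 67.1 CPM in DMSO libraries, and the dynein heavy chain gene dnah5.L did not pass (0.37 ± 0.53, adjusted p = 0.582).

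**Figure D2:**
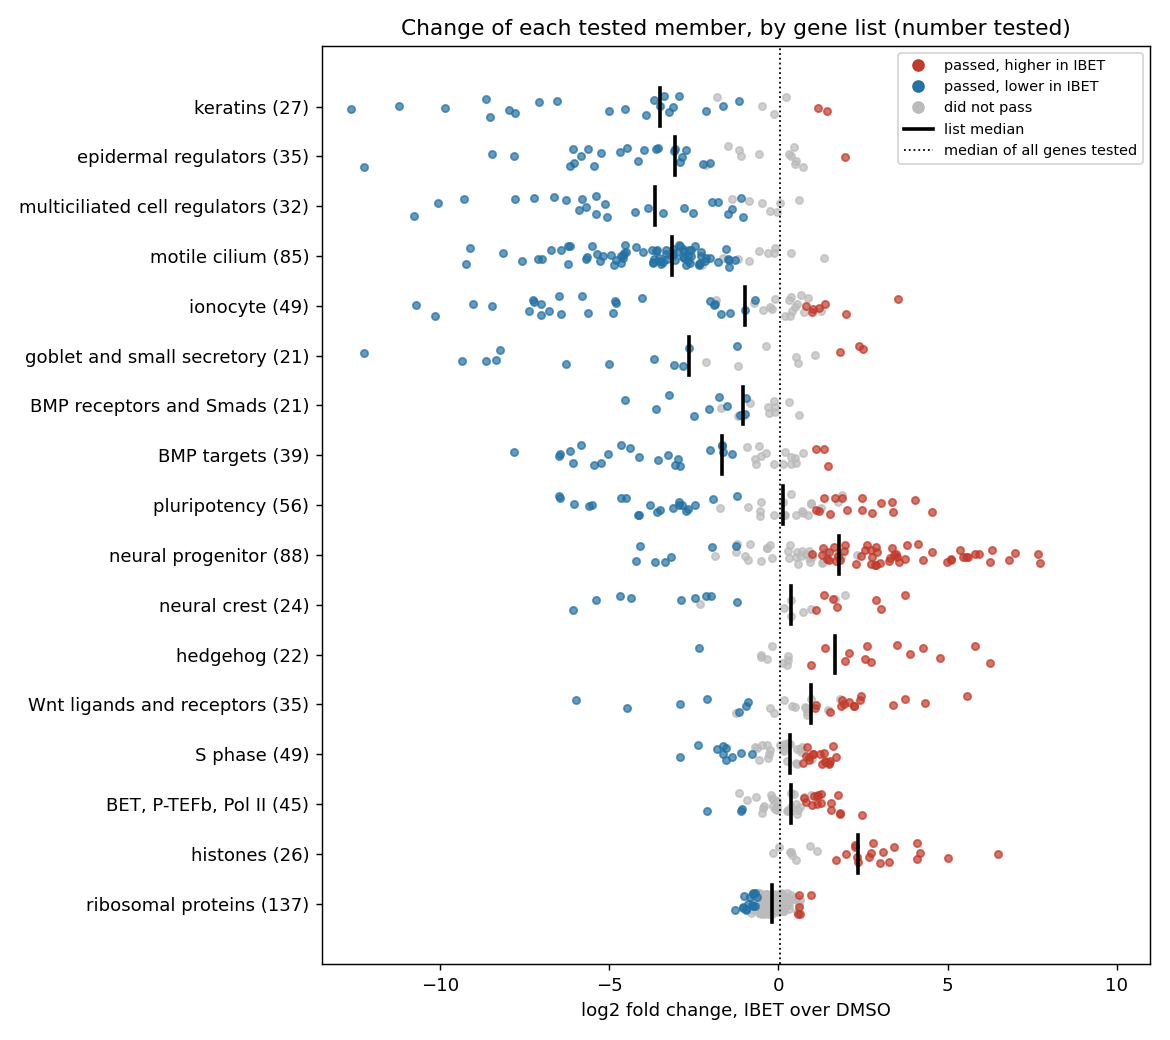
Log2 fold change (IBET over DMSO) of every tested member of 17 gene lists, one point a gene, with the number tested in parentheses; red and blue points passed the test in the higher and lower direction, grey points did not, black bars are list medians and the dotted line is the median of all genes tested (0.05). The motile cilium list has 75 blue points of 85 and no red one, and the histone list has 18 red points of 26 and no blue one. Of all genes tested, 25.2% were lower and 22.9% higher.

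Ionocytes, which pump protons and take up ions, are specified by foxi1 and ubp1. Of 49 tested ionocyte genes, 25 fell (51%) and 7 rose (14.3%), with a median of −1.0, beside 25.2% and 22.9% of all genes tested. foxi1.S had 0.353, 0 and 0.770 CPM in IBET libraries, against 129, 130 and 164 CPM in DMSO libraries (−8.48 ± 0.77, adjusted p = 1.13e-04). The proton pump subunit atp6v1b1.L was at 0.176, 0.423 and 0.428 CPM in IBET libraries and 76.8, 21.9 and 38.2 CPM in DMSO libraries. ca2.L, a carbonic anhydrase, had 3 reads over the IBET libraries and 4200 over the DMSO libraries (DMSO to IBET ratio 1302, 95% counting interval 445 to 6317). The count that rose was 3 to 4 when IBET library b or any one DMSO library was left out and 11 without IBET library a.

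Most tested genes of secretory cells fell. Of 21 tested genes of goblet and small secretory cells, 12 fell (57.1%) and 3 rose (14.3%), beside 25.2% and 22.9% of all genes tested (median −2.65). otogl2.L, an otogelin-like mucin that goblet cells secrete, had 8.58, 1.74 and 12.1 CPM in IBET libraries, against 7725, 3859 and 3281 CPM in DMSO libraries. spdef.S, whose mammalian counterpart directs goblet cell differentiation, had 3 reads over the IBET libraries and 1077 over the DMSO libraries (DMSO to IBET ratio 334, 95% counting interval 114 to 1622). Of 8 tested cement gland genes 4 fell (50%) and 2 rose (25%). The anterior gradient genes ag1.L and agr2.S had log2 fold changes of −7.92 and −8.17, and the 2 that rose were the homeobox genes otx1.L (1.93) and otx2.L (2.44), of which 1 was called when IBET library b or c or any one DMSO library was left out, and 4 rose with the letters as blocks.

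BMP signalling is the pathway that commits the ectoderm to epidermis. Its ligand genes were divided in their response. With 2 of 10 tested higher (20%) and 3 lower (30%), they stood near the 22.9% and 25.2% of all genes tested. With DESeq2 1 rose, and at a mean CPM of at least 5 none did. The ligand list summed to 55.8 to 332 CPM in IBET libraries and 593 to 988 CPM in DMSO libraries. bmp7.1.L had 0.411, 0.687 and 1.58 CPM in IBET libraries, against 110, 132 and 119 CPM in DMSO libraries (−7.02 ± 0.50, adjusted p = 4.89e-05), bmp7.1.S fell by 6.76 and bmp7.2.L fell by 3.93. bmp4.S, by contrast, had 224, 34.8 and 102 CPM in IBET libraries and 90.3, 95.4 and 135 CPM in DMSO libraries and did not pass (0.17 ± 0.55). bmp4.L also missed the threshold (−1.07 ± 0.60, adjusted p = 0.169). It passed without IBET library a, at −1.94, and without a low-count filter, at −1.11. bmp2.S rose to 8.34, 2.48 and 5.09 CPM in IBET libraries, against 1.05, 1.33 and 1.22 CPM in DMSO libraries (2.14 ± 0.51, adjusted p = 9.00e-03).

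Of 21 tested receptor and Smad genes, 10 fell (47.6%, beside 25.2% of all genes tested) and none rose, with a median of −1.06. Without IBET library c, 6 fell. smad9.S, a Smad that transmits BMP signals, had 1.70, 0.845 and 1.88 CPM in IBET libraries, against 29.2, 35.6 and 39.6 CPM in DMSO libraries (−4.55 ± 0.40). smad1.L fell by 0.96 ± 0.30 (adjusted p = 0.0287), a call lost without IBET library b, IBET library c, DMSO library b or DMSO library c (adjusted p = 0.053 to 0.0875), and the receptor acvr1.L fell by 1.52 ± 0.32. bmpr1a.L, smad6.L and smad7.L did not pass.

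Of 39 tested BMP target genes, 22 fell (56.4%) and 3 rose (7.69%), beside 25.2% and 22.9% of all genes tested (median −1.66). The list shares members with the epidermal regulators, among them msx1.S, msx2.L and gata3.S, so the counts of these lists are not independent. msx1.S had 2.70, 1.06 and 5.22 CPM in IBET libraries, against 106, 161 and 128 CPM in DMSO libraries (−5.45 ± 0.56, adjusted p = 2.01e-04), and msx2.L fell by 6.06 and ventx1.2.S fell by 6.49. The 3 that rose were id2.L, id3.L and id3.S, inhibitors of basic helix-loop-helix factors. The homeolog id2.S fell by 1.66, with means of 131 CPM in IBET and 415 CPM in DMSO libraries. The means of id2.L were 483 CPM in IBET and 177 CPM in DMSO libraries. With all 30 libraries fitted together id3.L (adjusted p = 0.0564) and id3.S (adjusted p = 0.15) were lost, and id3.S also without DMSO library a (adjusted p = 0.0605). id3.L had 1041, 511 and 717 CPM in IBET libraries, against 280, 294 and 324 CPM in DMSO libraries (1.34 ± 0.28, adjusted p = 5.42e-03). ventx2.1.L, with 179, 33.7 and 167 CPM in IBET libraries and 76.1, 196 and 146 CPM in DMSO libraries, did not pass. For most of these genes, as for the epidermal regulators, the lowest IBET value was in library b, and the targets summed to 5741, 2180 and 4302 CPM in IBET libraries a, b and c, against 6954, 7908 and 6481 CPM in DMSO libraries.

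Extracellular modulators of BMP changed in both directions, 5 higher (33.3%) and 7 lower (46.7%) of 15 tested, beside 22.9% and 25.2% of all genes tested. The antagonist noggin was low in all libraries but higher in IBET. nog.S had 77 reads against 1 (IBET to DMSO ratio 82.8, 95% counting interval 14.4 to 3312), at 1.41, 1.11 and 1.37 CPM in IBET libraries. The chordin-cleaving protease tll1.L had 0.823, 0.370 and 2.44 CPM in IBET libraries, against 291, 275 and 317 CPM in DMSO libraries, and bmper.L and twsg1.S, secreted BMP-binding proteins, had log2 fold changes of −8.6 and −5.26. The related protease bmp1.L rose by 1.44 ± 0.28.

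The largest rises among annotated genes held several regulators of neural progenitors. The zinc finger gene zic1.S had 237, 229 and 199 CPM in IBET libraries, against 0.502, 1.94 and 0.798 CPM in DMSO libraries (7.68 ± 0.53, adjusted p = 4.54e-05), and zic1.L had 53.7, 143 and 116 CPM in IBET libraries, against 0.167, 1.14 and 0.160 CPM in DMSO libraries. zic2.L was at 65.2, 78.2 and 41.7 CPM in IBET libraries and 0.167, 0.901 and 0.372 CPM in DMSO libraries (7.0 ± 0.60). The secreted Wnt inhibitor gene sfrp2.L had 323, 449 and 439 CPM in IBET libraries, against 2.80, 2.09 and 0.851 CPM in DMSO libraries (7.71 ± 0.49). Every IBET library lay far above every DMSO library for these genes, but the largest rises were chosen among genes without overlap, so separation was a condition of the choice.

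Among the other rises of the 12 largest, arhgap25.S, which encodes a GTPase-activating protein, had 20.3, 75.5 and 79.6 CPM in IBET libraries, against 0.0837, 0.237 and 0.160 CPM in DMSO libraries. arhgef6.S and rasgrp2.S, exchange factors for small GTPases, rose by 7.44 and 6.76. The glutamate receptor subunit gene grin3b.L, a member of the neuron list, had 755 reads against 3 (IBET to DMSO ratio 271, 95% counting interval 92.2 to 1315). c17orf58.L rose by 7.14, and the ephrin gene efna2.S had 1.70, 15.1 and 11.5 CPM in IBET libraries, against 0, 0.237 and 0 CPM in DMSO libraries. Library a was the lowest of the IBET libraries for arhgap25.S, rasgrp2.S, efna2.S and zic1.L.

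Across the whole neural progenitor list, 51 of 88 tested genes rose and 7 fell, with a median of 1.79, beside 22.9% of all genes higher. Some of its members were named by the study for these libraries, so that the direction of the list is not independent evidence. sox3.S, a SoxB1 factor of pluripotent and neural cells, had 853, 945 and 684 CPM in IBET libraries, against 27.4, 53.8 and 25.8 CPM in DMSO libraries (4.54 ± 0.37, adjusted p = 7.27e-05), and sox3.L rose by 3.35. sox11.S had 313, 278 and 211 CPM in IBET libraries, against 5.61, 7.44 and 3.35 CPM in DMSO libraries (5.61 ± 0.38), and sox11.L rose by 5.11. The list summed to 4327 to 5171 CPM in IBET libraries and 1207 to 1401 CPM in DMSO libraries.

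Some neural genes did not pass. sox2.L had 8.29, 28.6 and 36.4 CPM in IBET libraries and 10.2, 20.7 and 20.6 CPM in DMSO libraries, which overlap (0.51 ± 0.52, adjusted p = 0.438). gmnn.L, geminin, rose by 1.49 ± 0.36 and the surface protein gene lrig3.L by 3.29 ± 0.24, with 97.7, 107 and 107 CPM in IBET libraries against 9.83, 10.7 and 11.3 CPM in DMSO libraries. pax6.L, ncam1.L and the neuronal RNA-binding protein gene elavl3.L did not pass. The ventral neural tube gene nkx2-2.S had 179 reads against 2 and the motor neuron gene lhx3.S 257 against 4. Of 31 tested genes of differentiated neurons, 11 rose (35.5%) and 4 fell (12.9%), beside 22.9% and 25.2% of all genes tested. The list summed to 283 to 493 CPM in IBET libraries and 552 to 794 CPM in DMSO libraries. syt1.L, a synaptotagmin, had 2.82, 0.581 and 4.45 CPM in IBET libraries, against 564, 257 and 362 CPM in DMSO libraries. Without syt1.L, left out after its values were seen, the list summed to 283 to 488 CPM in IBET libraries and 230 to 299.9 CPM in DMSO libraries, so the order of the sums rests on this gene.

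Markers of mesoderm and endoderm were low. The blood and endothelium list summed to 191 to 430 CPM in IBET libraries and 329 to 524 CPM in DMSO libraries. Of its 16 tested genes, 8 rose (50%) and 1 fell (6.25%), with a median of 1.44, beside 22.9% and 25.2% of all genes tested. At a mean CPM of at least 5, 4 rose, and 0 to 4 fell under other settings. The mesoderm list summed to 45.1 to 108 CPM in IBET libraries and 196 to 388 CPM in DMSO libraries. Of its 21 tested genes, 9 rose (42.9%) and 4 fell (19%), and 5 rose without IBET library c, DMSO library a or DMSO library c. The endoderm list summed to 72.3 to 116 CPM in IBET libraries and 271 to 404 CPM in DMSO libraries. Of its 20 tested genes, 5 rose (25%) and 9 fell (45%), and 3 rose without IBET library c and 8 without IBET library a or DMSO library b. myod1.L had 3.58, 5.34 and 3.93 CPM in IBET libraries, against 0.627, 0.237 and 0.106 CPM in DMSO libraries, and gsc.L had 1.18, 2.96 and 4.1 CPM in IBET libraries, against 0.126, 0.0948 and 0 CPM in DMSO libraries. tbx2.L, a T-box gene that the ectoderm also expresses, had 0.764, 1.06 and 5.99 CPM in IBET libraries, against 117, 223 and 156 CPM in DMSO libraries. tbx2.L and tbx2.S made up most of the mesoderm sum of the DMSO libraries, and without both, left out after their values were seen, the list summed to 43.6 to 98.7 CPM in IBET libraries and 20.7 to 42.3 CPM in DMSO libraries. The part of such cells in the results was not tested.

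Of 24 tested neural crest genes, 7 rose (29.2%) and 9 fell (37.5%), and of 39 plate border and placode genes 10 rose (25.6%) and 13 fell (33.3%), beside 22.9% and 25.2% of all genes tested. sox9.L had 24, 43.2 and 43.9 CPM in IBET libraries, against 3.14, 2.66 and 2.55 CPM in DMSO libraries (3.73 ± 0.35, adjusted p = 1.34e-04). kit.S, a receptor tyrosine kinase of pigment cell precursors, had 7.46, 3.91 and 7.74 CPM in IBET libraries, against 451, 378 and 459 CPM in DMSO libraries (−6.07 ± 0.36). snai2.L, which marks the crest, did not pass (−2.33 ± 0.91, adjusted p = 0.0618) and reached at most 3.93 CPM in any library. snai2.L passed as lower with the letters as blocks (−2.09, adjusted p = 0.0179), with DESeq2, without a low-count filter, with all 30 libraries and without DMSO library b.

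Of 56 tested pluripotency genes of the blastula, 15 rose (26.8%, beside 22.9% of all genes tested) and 21 fell (37.5%, beside 25.2%), with a median of 0.13. The pou5f3 genes, the frog counterparts of mammalian Oct4, went in different directions. pou5f3.2.S had 599, 485 and 355 CPM in IBET libraries, against 17.4, 53.9 and 16.8 CPM in DMSO libraries (4.03 ± 0.51, adjusted p = 5.31e-04). pou5f3.1.L had 397, 66.7 and 99.0 CPM in IBET libraries, against 1301, 1764 and 530 CPM in DMSO libraries (−2.68 ± 0.70, adjusted p = 0.0137). pou5f3.2.L, at 1211, 621 and 538 CPM in IBET libraries and 109, 436 and 193 CPM in DMSO libraries, passed (1.68 ± 0.51, adjusted p = 0.0254). Its call was lost without IBET library a, DMSO library a or DMSO library c, where the change was 1.27 to 1.49. It was also lost with all 30 libraries fitted together (1.74, adjusted p = 0.0794). klf2.S and tfcp2l1.S, which sustain naive pluripotency in mouse cells, had log2 fold changes of −5.6 and −4.52.

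Untreated explants at stage 9 show where these genes stood when treatment began; the 3 groups were scaled together for this and no test was made. zic2.L was at 144 ± 27.3 CPM (SD, n = 3 in each group) at stage 9, at 72.4 CPM in IBET and at 0.570 CPM in DMSO at stage 13. sox3.S was at 273 ± 29.3 CPM at stage 9, at 971 CPM in IBET and at 42.5 CPM in DMSO, so that its level in IBET was above that at stage 9. The same order held for sox11.L (29.7, 474 and 13.9 CPM), for fzd7.L (131, 795 and 16.7 CPM) and for zic1.S (12.7, 260 and 1.28 CPM). pou5f3.3.L was at 695 ± 59.3 CPM at stage 9, at 12.9 CPM in IBET and at 3.53 CPM in DMSO, and gmnn.L at 317, 58.9 and 21.2 CPM, which were low in both stage 13 groups.

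The epidermal genes named here were low at stage 9, with 1 exception. krt12.4.L was at 0.304 ± 0.342 CPM at stage 9, at 0.449 CPM in IBET and at 3057 CPM in DMSO. gata3.S was at 0.0324 CPM at stage 9, at 1.01 CPM in IBET and at 235 CPM in DMSO, foxj1.S at 0.05, 0.291 and 326 CPM, and dlx3.S at 0, 10.7 and 417 CPM. The exception, grhl1.L, had 243 ± 56.2 CPM at stage 9, 135 CPM in IBET and 1167 CPM in DMSO. smad1.L had 168 CPM at stage 9, 49.8 CPM in IBET and 98.6 CPM in DMSO.

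**Figure D3:**
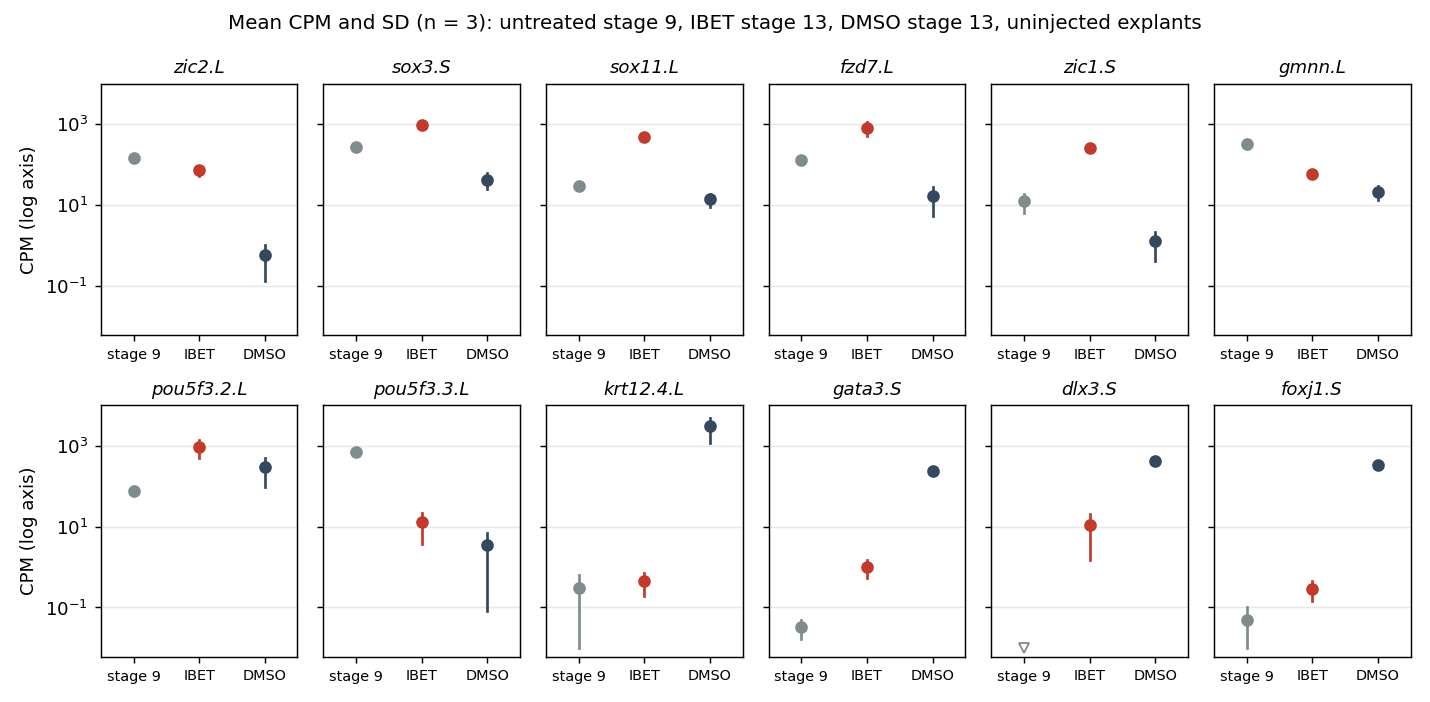
Mean CPM (log axis) with SD over 3 libraries in untreated explants at stage 9 (grey) and in IBET (red) and DMSO (dark blue) explants at stage 13, for 12 genes; an open triangle marks a mean of 0, and bars are cut off at the lowest value drawn. sox3.S, sox11.L, fzd7.L, zic1.S and pou5f3.2.L are highest in IBET, while zic2.L, gmnn.L and pou5f3.3.L are highest at stage 9 and the last 4 genes are highest in DMSO.

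Most Hedgehog pathway genes tested were higher. Of 22 tested, 13 rose (59.1%) and 1 fell (4.55%), with a median of 1.67, beside 22.9% and 25.2% of all genes tested. ptch1.L, which encodes a receptor of the pathway and is also one of its targets, had 23.3, 12.7 and 15 CPM in IBET libraries, against 0.544, 0.806 and 1.28 CPM in DMSO libraries (4.28 ± 0.46, adjusted p = 2.36e-04). The co-receptors gas1.S and cdon.S rose by 4.77 and 2.73 and the transcription factor gene gli2.L by 2.62. smo.L, which transmits the signal, did not pass, nor did gli3.L or hhip.L.

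Wnt ligand and receptor genes changed in both directions, 15 higher (42.9%) and 7 lower (20%) of 35 tested, beside 22.9% and 25.2% of all genes tested. Without IBET library b, 4 were lower. fzd7.L, a maternal and neural Frizzled receptor, had 887, 756 and 392 CPM in IBET libraries, against 10.5, 25.2 and 6.65 CPM in DMSO libraries (5.59 ± 0.59, adjusted p = 2.17e-04). fzd6.L, a receptor of planar polarity in skin, had 4.64, 1.11 and 6.16 CPM in IBET libraries, against 195, 320 and 252 CPM in DMSO libraries (−6.00 ± 0.61). Among 15 tested secreted or membrane antagonists 8 rose (53.3%) and 3 fell (20%), and 1 fell without IBET library a. Of 29 target genes 7 rose (24.1%), near the 22.9% of all genes tested, and 3 fell (10.3%), below the 25.2% of all genes. Of these target genes 4 rose without IBET library c, and 5 fell without IBET library a or DMSO library a. The tested target genes had a median of 0.52 and ran from −2.46 to 5.83. Among them axin2.L did not pass (−0.23 ± 0.54) and lef1.L fell by 2.03 ± 0.41, below the median of the list.

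Genes of FGF, Notch and ephrin signalling are given by example. The FGF receptor gene fgfr4.L had 225, 114 and 233 CPM in IBET libraries, against 29.3, 37.7 and 35.4 CPM in DMSO libraries, and fgf8.L rose by 3.50 at low level. The feedback inhibitor spry2.L rose by 3.44 and spry4.L fell by 4.1. Of 51 tested Notch genes 10 rose (19.6%) and 14 fell (27.5%), near the 22.9% and 25.2% of all genes tested. lfng.L, a glycosyltransferase that modifies Notch, rose by 3.05 and hes1.L by 2.74, while the ligand gene dlc.L had 5.05, 2.06 and 3.55 CPM in IBET libraries, against 40.9, 91.6 and 65.3 CPM in DMSO libraries, and the target hey1.L fell by 3.22. The ephrin receptor gene epha4.L rose by 3.94 ± 0.40.

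Genes of the machinery that BET proteins serve were examined next. brd2.S, itself a BET protein, had 1438, 1063 and 1139 CPM in IBET libraries, against 441, 424 and 385 CPM in DMSO libraries (1.54 ± 0.21, adjusted p = 7.52e-04). The large subunit of RNA polymerase II, polr2a.L, had 998, 1144 and 945 CPM in IBET libraries, against 218, 242 and 100 CPM in DMSO libraries (2.46 ± 0.34). hexim1.L, which holds P-TEFb inactive, rose by 1.17 ± 0.37, to 213, 79.5 and 112 CPM in IBET libraries against 71.3, 51.0 and 58.0 CPM in DMSO libraries. The call for hexim1.L was lost without IBET library a (0.69, adjusted p = 0.0702) and without each DMSO library (adjusted p = 0.0605 to 0.0957). cdk9.S, the kinase of P-TEFb, fell by 2.12 ± 0.34 while cdk9.L did not pass (0.26 ± 0.25). Of the 45 genes of this group 15 rose (33.3%) and 3 fell (6.67%), beside 22.9% and 25.2% of all genes tested. But 9 rose and 5 fell without IBET library a, and 4 rose without DMSO library a or DMSO library c.

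Histone genes rose as a group, with 18 of 26 tested higher (69.2%, beside 22.9% of all genes tested), none lower and a median of 2.35. Their sum was 12170 to 20144.5 CPM in IBET libraries and 3890 to 4861 CPM in DMSO libraries. h3-3b.L, which encodes the replication-independent variant H3.3, had 6143, 4730 and 5351 CPM in IBET libraries, against 1091, 1050 and 1273 CPM in DMSO libraries (2.25 ± 0.20, adjusted p = 1.07e-04). h2aj.S had 104, 58.8 and 97.9 CPM in IBET libraries, against 2.30, 3.08 and 2.71 CPM in DMSO libraries, and h4c4.L rose by 4.09 ± 0.52.

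Cell cycle and growth genes changed without a common direction. The D-type cyclins ccnd1.S and ccnd2.S rose by 1.45 and 1.75, ccnd1.S no longer passing without IBET library c or DMSO library a, and ccne2.S, which drives entry into S phase, rose by 2.06. The log2 fold changes of myc.L and myc.S were −1.23 and −2.46, and myc.L was no longer called without IBET library b or DMSO library b. Of 49 S phase genes 17 rose (34.7%) and 10 fell (20.4%), beside 22.9% and 25.2% of all genes tested. Among them 8 to 11 rose when IBET library b or c or DMSO library a or c was left out. Of 66 mitotic genes 7 rose (10.6%) and 11 fell (16.7%), both below the shares of all genes. For mitotic genes, 3 to 4 rose without IBET library a or c or DMSO library a or c, and 18 fell without IBET library a and 7 without IBET library c. Of the S phase genes 6 fell without IBET library c. Of 137 ribosomal protein genes 5 rose (3.65%) and 15 fell (10.9%), both below the shares of all genes (median −0.19). But 36 fell without IBET library a, 1 to 6 without any other single library, and 29 with the letters as blocks.

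Genes of early response and stress changed in both directions. txnip.L, which restrains glucose uptake, had 509, 611 and 675 CPM in IBET libraries, against 45.3, 52.7 and 39.0 CPM in DMSO libraries (3.71 ± 0.25, adjusted p = 4.43e-05), and klf10.S rose by 3.36 ± 0.23. klf6.L fell by 3.87. Of 55 tested early response genes 25 rose (45.5%) and 17 fell (30.9%), beside 22.9% and 25.2% of all genes tested. plk2.L and mdm2.L, p53 targets, rose by 4.2 and 3.41, with library a the lowest IBET library for both, while mdm2.S fell by 1.88. Of 48 genes of the p53 list, 19 rose (39.6%) and 8 fell (16.7%, below the 25.2% of all genes tested). The chaperone of the endoplasmic reticulum, hspa5.L, fell to 43.5, 10.5 and 12.1 CPM in IBET libraries, against 301, 172 and 187 CPM in DMSO libraries.

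Xenopus laevis keeps homeologous copies, .L and .S, of many genes. Of 5372 annotated pairs with both copies tested, both passed in 1525, in 597 of them both rose (11.1%), in 794 both fell (14.8%) and in 134 they went opposite ways (2.49%). One copy alone passed in 1999 pairs. Ranked by the smaller of the 2 changes, cdh1 had the widest split: cdh1.L rose by 3.50 ± 0.63, to 1.76, 3.54 and 3.08 CPM in IBET libraries against 0.0837, 0.284 and 0.372 CPM in DMSO libraries, while cdh1.S, which carries nearly all E-cadherin reads, fell by 4.24. The stress factor atf3.L rose to 18.3, 16.6 and 18.3 CPM in IBET libraries, against 1.30, 1.75 and 1.49 CPM in DMSO libraries, and atf3.S fell by 2.1. vgll4l.L rose by 2.6 while vgll4l.S fell by 2.62, and efnb2.L fell by 1.97 while efnb2.S rose by 1.83. Reads that fit both copies can be lost or shared in counting, so the level of either copy is uncertain where they are alike.

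**Figure D4:**
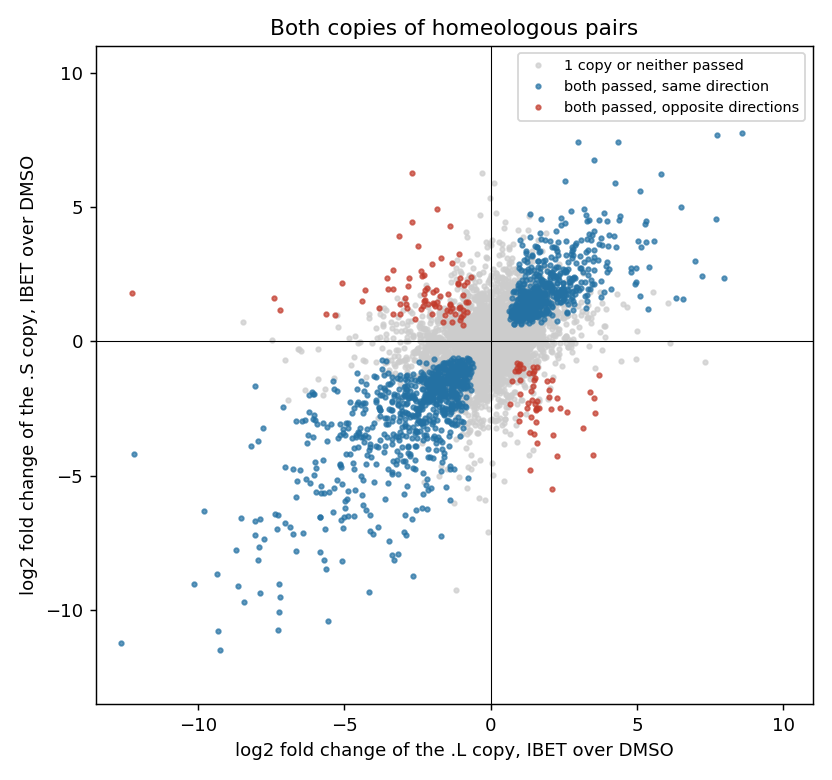
Log2 fold change (IBET over DMSO) of the .S copy against that of the .L copy for 5372 homeologous pairs, one point a pair; pairs with both copies past the test in the same direction are blue, in opposite directions red (134 pairs), and all others grey. Blue points lie mostly at the lower left and upper right.

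Whether the change depended on the setting was tested with the difference of IBET effects between experiments. Against Wnt/Chd explants of the same stage, the effect differed for 524 of 23393 genes (2.24%), 103 more positive in uninjected explants and 421 more negative; with the letters as blocks the numbers were 997, 223 and 774. Leaving out 1 library gave 445 without DMSO b, 287 without IBET a, 260 without IBET b, 224 without IBET c, 191 without DMSO c and 189 without DMSO a. Of all genes tested, 0.44% differed in the positive and 1.8% in the negative direction. Within the Wnt/Chd experiment 3163 genes passed (15.3%), 6.71% of those tested higher and 8.6% lower.

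Cilium and ionocyte genes stood out in this comparison, in which 1.8% of all genes tested were more negative and 0.44% more positive in uninjected explants. Of 85 tested motile cilium genes, 36 fell more in uninjected explants and none less (12 without DMSO library a, 14 without DMSO c, 16 without IBET a or IBET c, 21 without IBET b), and of 51 ionocyte genes 11 fell more (7 without IBET a, IBET b, DMSO a or DMSO c). The change of rsph1.L was −6.16 in uninjected and −1.55 in Wnt/Chd explants, a difference of −4.67 (adjusted p = 0.00797). Neural progenitor genes rose more in uninjected explants in 11 of 115 cases, and less in 1; 3 rose more without DMSO library a or DMSO c, and 6 without IBET b or IBET c. sox11.L rose by 5.11 in uninjected and 1.85 in Wnt/Chd explants, a difference of 3.24 (adjusted p = 0.0086), and the change of zic1.L was 7.72 in uninjected and 1.90 in Wnt/Chd explants (difference 5.82, adjusted p = 0.031). No difference was called for krt12.4.L, at −12.63 in uninjected and −12.06 in Wnt/Chd explants. The levels of all these genes in the Wnt/Chd DMSO controls are not given here, and their part in the differences was not tested.

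Against uninjected explants collected at stage 17, the effect differed for 3253 of 23779 genes (13.7%), 1405 more positive and 1848 more negative at stage 13, and with the letters as blocks for 5405, 2317 and 3088. Only stage 13 libraries were left out here. Leaving out 1 gave 1341 without IBET b, 1279 without IBET c, 1588 without DMSO b, 1673 without DMSO c, 2885 without DMSO a and 4237 without IBET a. Of all genes tested, 5.91% were more positive and 7.77% more negative. At stage 17 itself 10373 genes passed (47.8%), 22% of those tested higher and 25.7% lower. Of 86 motile cilium genes, 37 fell less at stage 13 than at stage 17 and none more, and of 56 ionocyte genes 16 fell less and none more. The cilium count was 14 to 18 without IBET b, IBET c, DMSO b or DMSO c, and the ionocyte count 9 to 10 without IBET b, IBET c or DMSO b.

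Epidermal regulators ran the other way, with 11 of 36 falling more at stage 13 than at stage 17 and 1 less. Among all genes tested, 7.77% were more negative and 5.91% more positive at stage 13. The 11 became 3 without IBET b or IBET c, 6 without DMSO b and 17 with the letters as blocks. klf5.L fell by 6.04 at stage 13, while its change at stage 17 was 0.17 and did not pass (difference −6.31, adjusted p = 0.014). tbx2.L fell by 5.96 at stage 13, with a change of 0.85 at stage 17. Pluripotency genes were lower in 19 of 58 cases at stage 13 relative to stage 17 and higher in none, beside the same 7.77% and 5.91% of all genes. The 19 became 9 without IBET b or IBET c and 33 with the letters as blocks. pou5f3.2.L rose by 1.68 at stage 13 and by 6.62 at stage 17 (difference −4.96, adjusted p = 0.016).

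Treatment from the 2-cell stage to the same collection stage changed 12376 of 21842 genes (56.7%), 27.4% higher and 29.3% lower. The difference from treatment begun at stage 9 passed for 2 of 24105 genes (0.0083%), tbxt.L and cdx2.S, and for none with the letters as blocks. Both genes fell with treatment from the 2-cell stage (−8.63 and −4.19). Here they had too few reads to be tested, with 7 and 22 over the IBET libraries. Without 1 library of the experiment begun at stage 9, the difference passed for 14 (IBET a or IBET c), 5 (IBET b), 1 (DMSO b) or 0 genes (DMSO a or DMSO c). The experiment from the 2-cell stage had 2 IBET and 2 DMSO libraries. At an unadjusted p of 0.05 edgeR gave 2367 genes (9.82% of those tested). DESeq2 called 440 after adjustment, over a different set of genes. edgeR without the low-count filter called 782. Genes called higher here numbered 3622 in common with that experiment, 79.2% of those called here and 66.3% of those called there among the genes tested in both, and genes called lower 4404 in common, 84.1% and 72.1%. With Wnt/Chd explants the shared share of the genes called here was 25.8% of those higher and 30.1% of those lower, or 87.8% and 85.4% of the genes called there. Start of treatment and experiment cannot be told apart in this design.

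**Figure D5:**
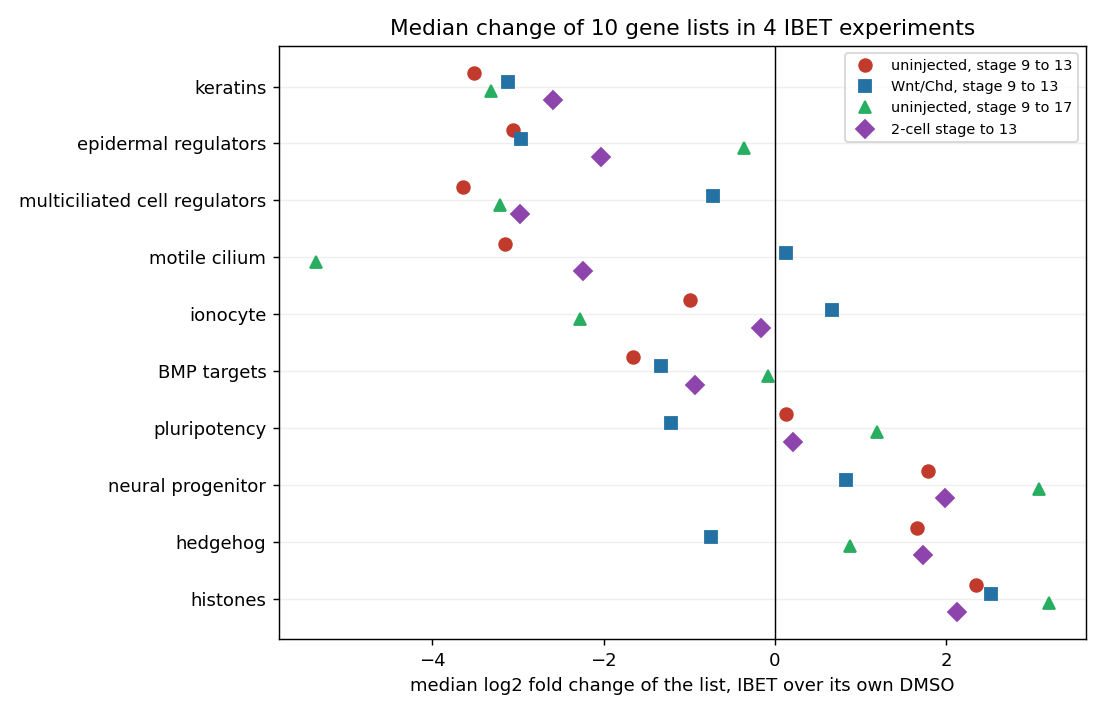
Median log2 fold change (IBET over the DMSO controls of the same experiment) of 10 gene lists in 4 experiments, one marker an experiment. Each median is over the list members tested both in the uninjected stage 13 experiment and in the experiment shown. The motile cilium list lies at −3.16 in the uninjected stage 13 experiment (red circle) and at 0.13 in Wnt/Chd explants, while histones lie between 2.13 and 3.2 in all 4.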

How the data were processed

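RNA was sequenced from animal pole explants after a directional library kit. Per the labels, the authors used fastp 0.23.2 for trimming, STAR 2.6.0 for alignment and HTSeq 1.99.2 for counting per gene copy. They deposited raw read counts for 49281 genes; the strand setting of the counting is not given in the sources used here. The authors' own fold changes and p-values were not used. Counts of the 3 IBET and 3 DMSO libraries were fitted with edgeR 4.0.16 (quasi-likelihood test, trimmed mean of M values, filterByExpr with a minimum count of 10 and total of 15, Benjamini-Hochberg adjusted p of 0.05, limma 3.58.1, R 4.3.3); DESeq2 1.42.0 was an alternative. SE is the log2 fold change divided by the root of F. Differences of IBET effects were interaction terms fitted with both experiments. Counts that HTSeq gave to no gene were left out of library sizes (the genes held 58.9% to 64.4% of reads in IBET and 71.8% to 74.0% in DMSO libraries). Scripts were tested on simulated data.

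By column letter, deviations from group means correlated at 0.23 to 0.40 for the same letter and −0.20 to −0.11 for different letters. Centring on group means pushes the values for different letters below 0 when those for the same letter are positive. The negative values are therefore not separate evidence of pairing. The letter was used as an alternative block. Genes were named as the study's own, the 12 largest annotated rises and falls (mean log2 CPM of at least 2, no overlap), up to 6 per list plus members whose role the text needed, and 5 per direction of each difference; a few genes that this rule or the lists hold are not reported here. Members and lists were chosen with earlier results of these data known. Alternatives were other scalings, filters and tools, the block, all libraries treated from stage 9 together, summed homeologs, and each library left out.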

Additional observations from a re-analysis of the deposited data

Results flagged for a closer look

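The IBET effect differed between experiments for 524 genes against Wnt/Chd explants, 3253 against stage 17 and 2 against treatment from the 2-cell stage, by edgeR's interaction test. The genes named here are among those with the widest differences in each direction.

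Against Wnt/Chd explants the effect was more negative in uninjected explants for dmrt2.S (−9.24), tbc1d24.2.L (−8.56), tbx3.S (−7.83), ca2.L (−7.79) and slc6a3.S (−7.78). dmrt2.S had 9 reads over the IBET libraries and 5294 over the DMSO libraries. All of these but tbc1d24.2.L had too few reads in Wnt/Chd explants to be tested there, and tbc1d24.2.L did not pass there (−0.88, adjusted p = 0.681). The calls for tbc1d24.2.L and ca2.L held without DMSO b and were lost without any other single uninjected library (adjusted p = 0.0556 to 0.0943). The effect was more positive for pnhd.S (12.22), aqp3.L (9.92), lmx1b.1.L (8.85) and cyp26c1.L (8.77), which fell in Wnt/Chd explants. These genes had too few reads in uninjected explants to be tested there (3 to 16 over the IBET libraries, 1 to 3 over the DMSO libraries). The call for pnhd.S was lost without IBET a (8.88).

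Against stage 17 the effect was more negative at stage 13 for hes5.3.S (−7.78), krt12.4.L (−7.34), gata4.S (−7.33), tbx2.L (−6.86) and klf5.L (−6.31). The call for krt12.4.L was lost with the letters as blocks (−5.68, adjusted p = 0.0762). It was also lost when any single stage 13 library was left out (adjusted p = 0.0687 to 0.119). The call for hes5.3.S was lost without IBET b or IBET c (adjusted p = 0.0532 and 0.062), and that for tbx2.L without IBET b (adjusted p = 0.0585). The effect was more positive for abcc3.L (12.44), hyal4.L (9.49), tmprss2.13.S (8.74), cat2.L (7.48) and cavin1.L (7.46), which fell at stage 17. Of these only cat2.L had enough reads at stage 13 to be tested. The calls for abcc3.L and hyal4.L were lost without IBET b, IBET c, DMSO b or DMSO c (adjusted p = 0.0538 to 0.262). That for tmprss2.13.S was lost without IBET b or IBET c (adjusted p = 0.0584 and 0.238), and that for cavin1.L without IBET c (adjusted p = 0.0641).

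Against treatment from the 2-cell stage, tbxt.L (11.18) and cdx2.S (6.39) differed. Both fell with treatment from the 2-cell stage (−8.63 and −4.19). In uninjected explants treated from stage 9 they had too few reads to be tested. There they had 7 and 22 reads over the IBET libraries and 1 and 5 over the DMSO libraries. Both calls were lost with the letters as blocks (adjusted p = 0.0627 for each) and without any single DMSO library (adjusted p = 0.065 to 0.110). The call for cdx2.S was also lost without IBET b (adjusted p = 0.0556).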

How the results depend on the processing

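The count for IBET against DMSO was 10231 and stayed between 7019 and 12693 under all alternatives run. Without 1 library it was 7615 to 11159, with 3173 to 5437 genes higher and 4290 to 5722 lower, and at a mean CPM of at least 5, where fewer genes are tested, 3567 were lower. With the replicate block by letter it was 11617. The difference from Wnt/Chd explants gave 1309 genes with DESeq2 (329 higher, 980 lower), 811 without a low-count filter (201 higher) and 997 with the block (223 higher, 774 lower), and 189 to 445 without 1 library (26 to 74 higher, 163 to 371 lower). The difference from stage 17 gave 5405 with the block (2317 higher, 3088 lower), 2456 higher with DESeq2, and 1279 to 4237 without 1 library (684 to 2118 higher, 530 to 2119 lower). The difference from the 2-cell stage gave 440 with DESeq2 (86 higher, 354 lower), 782 without a filter (170 higher, 612 lower), 0 at a mean CPM of at least 5, 0 with the block, and 0 to 14 without 1 library (0 to 9 higher, 0 to 11 lower). The causes were not tested. Of the genes named for IBET against DMSO, the block gained fgfr3.L (−1.23), pou5f3.3.L (2.08) and snai2.L (−2.09) and lost none. Some genes that did not pass changed sign. With the block bmp4.S was at −0.19, and at a mean CPM of at least 5 ventx2.1.L was at 0.0034. Over the single libraries left out, the log2 fold change ran from −0.35 to 1.14 for not.S, −0.79 to 0.14 for axin2.L, −0.61 to 0.58 for bmp4.S, −0.50 to 0.033 for bmpr1a.L, −0.11 to 0.76 for dnah5.L, −0.82 to 0.082 for elavl3.L, −0.081 to 0.54 for hhip.L, −0.75 to 0.081 for ncam1.L, −0.72 to 0.24 for rfx3.L, −0.59 to 0.79 for smo.L, −0.079 to 1.15 for tfap2a.L and −0.47 to 0.31 for ventx2.1.L. Genes with few reads in a group are limited by counting error.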
